A study of Mus musculus with 15 samples.

Results

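Brush-border digestive enzymes are the hydrolases that enterocytes, the absorptive cells of the small intestine, anchor in the apical microvilli, where they complete the breakdown of sugars and peptides next to the transporters that take the products up. They are among the best known markers of a mature small intestinal epithelium, and several of them switch on or off as the gut changes from milk to solid food. Their promoters are textbook targets of the intestinal transcription factors of the CDX, HNF1, HNF4 and GATA families. The 10 genes described here were taken by symbol from the 78298 genes of the count tables: the carbohydrases Sis (sucrase-isomaltase), Mgam (maltase-glucoamylase), Lct (lactase) and Treh (trehalase), the intestinal alkaline phosphatase Alpi, the exopeptidases Anpep (aminopeptidase N), Dpp4 (dipeptidyl peptidase) and Enpep (glutamyl aminopeptidase), and the metalloendopeptidase subunits Mep1a and Mep1b (meprin alpha and beta). All 10 were found once each and all 10 were among the 17560 genes that passed the filter on low counts.

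The study grew organoids from small intestinal crypts of adult female C57BL/6J mice and asked how prolonged overexpression of SOX9, a transcription factor of the crypt, changes them. It collected 15 poly-A libraries 5 days after seeding, in triplicate for 5 conditions. Halo-NLS organoids, the control, carried a HaloTag with a nuclear localization signal. The budding organoids SOX9-Halo_budding and SOX9-mEGFP_budding carried Sox9 fused to the HaloTag or to the green fluorescent protein mEGFP, and the round SOX9-Halo_spheroid and SOX9-mEGFP_spheroid were later passages of the same lines. Each transgene had been delivered by lentivirus, was driven by the weak and ubiquitous L30 promoter, and was followed by an IRES and a puromycin resistance gene. The spheroids carried a second transgene in addition, histone H2B fused to mEGFP with zeocin resistance in the SOX9-Halo line and H2B fused to mScarletI with neomycin resistance in the SOX9-mEGFP line. Each tag was represented by 1 stable line, and the organoids of 6 wells were pooled for each library, so p-values measure the spread between cultures of that line. Spheroid shape, longer culture and the second transgene came together, so their parts in any difference between budding organoids and spheroids cannot be told apart.

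Between 28062722 and 40559766 reads per library were counted on genes (median 33491297), and levels are given as CPM, counts scaled with TMM factors to library size. Sox9 itself, measured with transgene and endogenous reads together, was at 15.8 ± 6.91 CPM (SD, n = 3) in Halo-NLS and at mean levels between 186 and 489 CPM in the 4 SOX9 conditions. The lowest mean, 186 ± 138 CPM in SOX9-Halo_budding, came from libraries that ran from 39.8 to 314 CPM. Halo-NLS libraries ran from 9.09 to 22.9 CPM. The epithelial markers Epcam, Cdh1, Krt8, Krt18 and Krt19 summed to between 4255 and 10676 CPM in every library, although from budding to spheroid Krt18 rose in both lines and Epcam fell in the SOX9-Halo line, from 969 ± 69.3 to 460 ± 21.6 CPM. Markers of other tissues were at or near 0, with summed levels of 0.317 to 3.29 CPM for 7 mesenchymal genes, 2.27 to 11.3 CPM for 6 immune genes and 0.0353 to 1.35 CPM for 4 endothelial genes. A gene was called with edgeR's quasi-likelihood test if its Benjamini-Hochberg adjusted p did not exceed 0.01, its level differed 2-fold or more and its normalized count averaged 10 or more. Log2 fold changes are given with their standard error.

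In budding SOX9 organoids all 10 enzymes were still transcribed, at 21.0 to 2183 CPM, and 0 were called against Halo-NLS. Few genes were: 0.763% of all genes tested were called lower and 1.99% higher in SOX9-mEGFP_budding, and 1.26% and 2.49% in SOX9-Halo_budding. A second count test, DESeq2, called 2 enzymes in each budding line. In SOX9-mEGFP spheroids 5 of the 10 fell, Sis, Lct, Treh, Alpi and Enpep, both against Halo-NLS and against the budding organoids of the same line. In SOX9-Halo spheroids 9 of the 10 fell in both comparisons, 6 of them to at most 25 reads in any library, and Anpep alone stayed at 595 to 704 CPM. Lct and Enpep were close to 0 in spheroids of both lines, whereas Mgam, Dpp4, Mep1a and Mep1b were still transcribed in SOX9-mEGFP spheroids. Of all genes tested, 12.1% were called lower in SOX9-mEGFP spheroids and 15.3% in SOX9-Halo spheroids against Halo-NLS, and 7.88% and 14.7% against the budding organoids of each line. In bulk RNA, fewer cells that make an enzyme and less of its RNA per cell cannot be told apart.

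**Figure D1:**
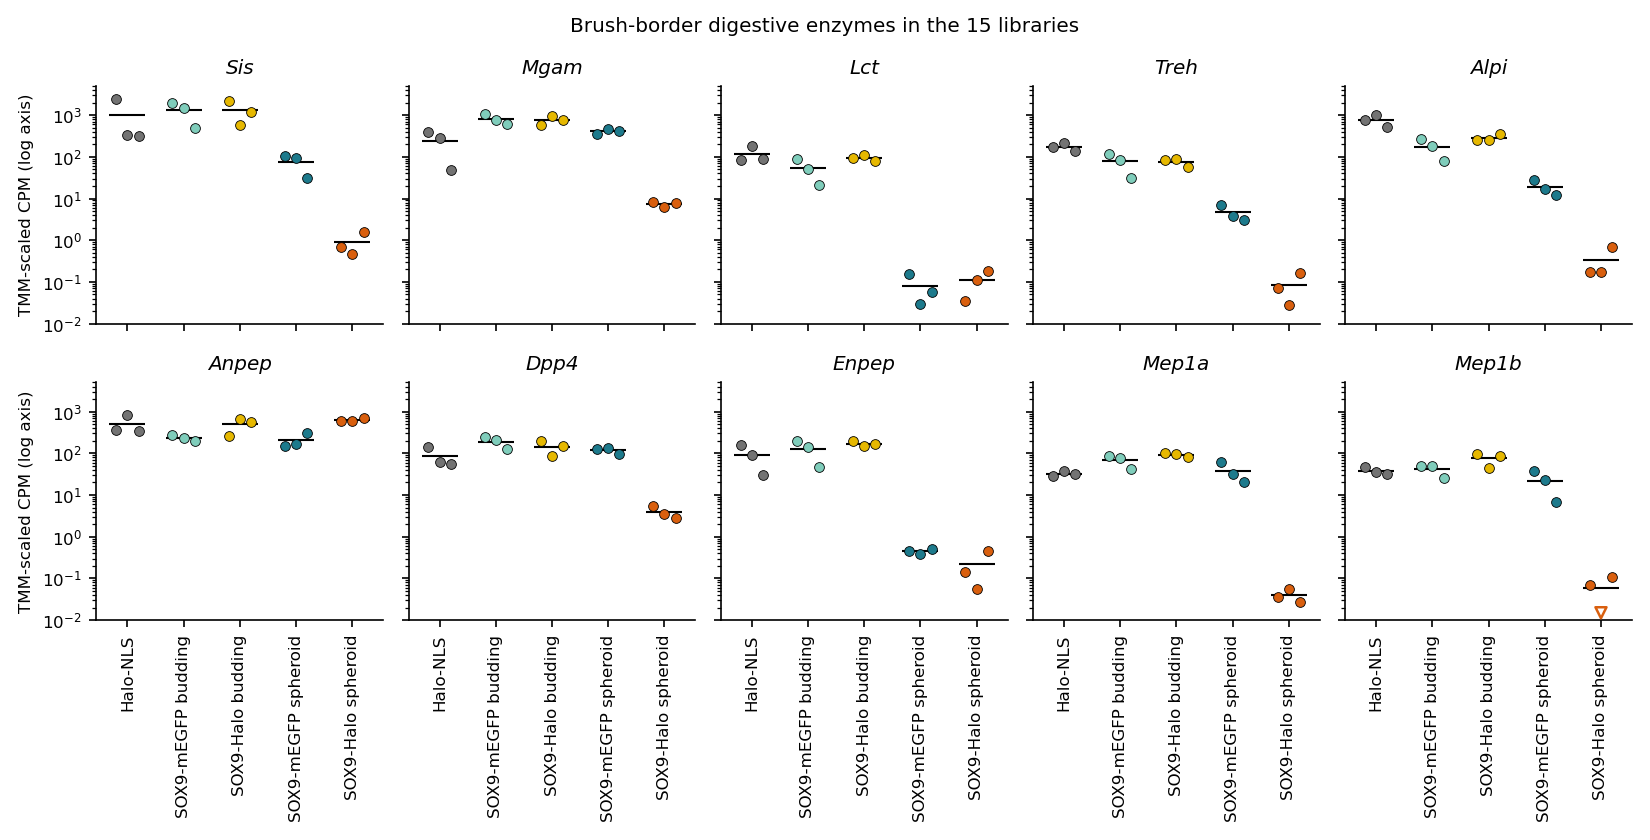
TMM-scaled CPM of the 10 enzymes on a log axis, 1 panel per gene and 1 point per library, with a bar at the mean of the 3 libraries of a condition; an open triangle at the lower edge marks a library with 0 counts (Mep1b, SOX9-Halo spheroid replicate 2). Anpep stays between 148 and 812 CPM in all 15 libraries, while the other enzymes drop in SOX9-Halo spheroids to 8.07 CPM or less.

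The upstream sequences of 4 of the genes are shown because they are the clearest cases of the patterns in the counts: Sis, with the highest mean level per length of the carbohydrases in Halo-NLS, Lct and Enpep, close to 0 in both kinds of spheroid, and Anpep, which stayed. Each is the 250 bases before the annotated start of the canonical transcript, read from GRCm39 on the minus strand of the genome and written 5′ to 3′ toward the gene: chr3:72875197-72875446 for Sis, chr1:128256056-128256305 for Lct, chr3:129126370-129126619 for Enpep and chr7:79492336-79492585 for Anpep, whose other transcripts begin farther upstream. Capitals mark every match, on either strand, to letters of 4 kinds of site. For CDX sites these were TTTAT and its variant with a last base C, written TTTAC. For HNF1 sites the letters searched were GTTAAT. For HNF4 sites they were CAAAGT. For GATA sites they were AGATAA and, with another first base, TGATAA.
Sis: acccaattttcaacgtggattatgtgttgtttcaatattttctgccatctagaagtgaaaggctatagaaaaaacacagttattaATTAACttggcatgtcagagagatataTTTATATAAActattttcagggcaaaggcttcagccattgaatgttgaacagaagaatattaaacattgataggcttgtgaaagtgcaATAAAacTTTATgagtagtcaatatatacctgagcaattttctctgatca
Lct: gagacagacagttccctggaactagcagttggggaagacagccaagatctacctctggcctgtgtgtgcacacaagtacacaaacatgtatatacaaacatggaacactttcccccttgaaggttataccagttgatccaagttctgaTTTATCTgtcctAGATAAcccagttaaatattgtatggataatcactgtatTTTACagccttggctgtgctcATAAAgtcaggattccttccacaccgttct
Enpep: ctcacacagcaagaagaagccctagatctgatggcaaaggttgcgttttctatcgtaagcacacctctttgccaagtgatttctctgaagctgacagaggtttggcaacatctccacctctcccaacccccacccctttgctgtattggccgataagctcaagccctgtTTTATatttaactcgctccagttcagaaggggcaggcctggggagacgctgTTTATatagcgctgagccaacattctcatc
Anpep: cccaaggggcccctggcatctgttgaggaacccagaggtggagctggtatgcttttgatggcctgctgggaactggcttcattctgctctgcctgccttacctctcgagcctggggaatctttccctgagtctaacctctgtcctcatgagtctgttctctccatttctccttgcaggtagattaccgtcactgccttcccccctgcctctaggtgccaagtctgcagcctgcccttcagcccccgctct
The Sis window held 4 CDX matches and 1 HNF1 match, the Lct window 3 CDX and 2 GATA matches, the Enpep window 2 CDX matches, and the Anpep window 0 matches of these letters. In the Lct window a TTTAT overlapped the reverse of an AGATAA. Over the 9 enzymes whose windows were read (all but Mep1b), 7 held a CDX match, 4 a GATA match, 2 an HNF4 match and 1 an HNF1 match. The Mgam window (chr6:40619663-40619912), with 3 CDX matches and 1 GATA match, lies inside the annotated gene, which begins farther upstream at 40605765. Besides Anpep, the window without a CDX match was that of Treh, which fell in both kinds of spheroid and held 2 HNF4 matches. These short motifs are common, and among 21757 windows of the same length before all protein-coding gene starts 50.72% held a CDX match, 15.92% a GATA match, 13.44% an HNF4 match and 6.278% an HNF1 match.

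Sis encodes sucrase-isomaltase, which splits sucrose and the branch points of starch, and lies on chromosome 3 (ENSMUSG00000027790, 72795890-72875196, minus strand, GRCm39). It was at 2379.9, 342 and 322 CPM in the 3 Halo-NLS libraries, at 1964, 1473 and 493 CPM in SOX9-mEGFP_budding and at 2183, 581 and 1215 CPM in SOX9-Halo_budding. SOX9-mEGFP spheroids had 106, 93.0 and 30.3 CPM and SOX9-Halo spheroids 0.670, 0.479 and 1.58 CPM. The budding and control libraries thus overlapped over a wide range, the SOX9-mEGFP spheroids lay below all of them, and the SOX9-Halo spheroids lay below the SOX9-mEGFP spheroids. Against Halo-NLS, Sis was lower by a log2 fold change of -3.73 ± 0.84 (adjusted p = 0.00224) in SOX9-mEGFP spheroids and of -10.10 ± 1.14 (adjusted p = 3.69e-06) in SOX9-Halo spheroids. Halo-NLS replicate 1 weighed on the first of these values, which was -2.11 (adjusted p = 0.0128) and no longer called without that library. Against the budding organoids of the same line the log2 fold changes were -4.10 ± 0.86 (adjusted p = 0.00196) and -10.49 ± 1.15 (adjusted p = 3.14e-06). The first of these, at -3.75, was not called without SOX9-mEGFP spheroid replicate 3 (adjusted p = 0.0124).

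Mgam, on chromosome 6 (ENSMUSG00000068587, 40605765-40746057, plus strand), encodes maltase-glucoamylase, which releases glucose from the ends of starch chains. Its levels were 387, 282 and 47.5 CPM in Halo-NLS, 1044, 773 and 602 CPM in SOX9-mEGFP_budding and 577, 959 and 762 CPM in SOX9-Halo_budding. In contrast to Sis, all 3 SOX9-mEGFP spheroid libraries kept Mgam, at 352, 454 and 419.8 CPM, whereas SOX9-Halo spheroids had 8.07, 6.36 and 7.72 CPM. The SOX9-Halo spheroids were below every other library, and the SOX9-mEGFP spheroids overlapped the Halo-NLS libraries but lay below the budding organoids of their line. The change from budding to spheroid was -0.98 ± 0.49 (adjusted p = 0.16, not called) in the SOX9-mEGFP line and -6.70 ± 0.62 (adjusted p = 5.62e-07) in the SOX9-Halo line. Relative to Halo-NLS, Mgam was at a log2 fold change of 0.77 ± 0.48 (adjusted p = 0.196) in SOX9-mEGFP spheroids and fell in SOX9-Halo spheroids by 5.01 ± 0.57 on the log2 scale (adjusted p = 4.42e-06).

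Lct encodes lactase, the milk sugar hydrolase of the suckling gut, and lies on chromosome 1 (ENSMUSG00000026354, 128212493-128256055, minus strand). Control libraries had 82.1, 178 and 88.5 CPM, SOX9-mEGFP_budding 90.6, 50.05 and 21.0 CPM and SOX9-Halo_budding 94.97, 108 and 77.9 CPM. In spheroids Lct was reduced to 6, 1 and 2 reads in the SOX9-mEGFP libraries and to 1, 4 and 7 reads in the SOX9-Halo libraries. All 6 spheroid libraries were far below all 9 others and overlapped each other. The pooled, scaled reads of SOX9-mEGFP spheroids were 578-fold lower than those of the budding organoids of the line (95% exact interval 304 to 1264, for counting error only), and those of SOX9-Halo spheroids 790.1-fold lower (452 to 1529.6). These ratios were 1118 without SOX9-mEGFP spheroid replicate 1 and 1197 without SOX9-Halo spheroid replicate 3. In the fit the changes were -9.26 ± 0.71 (adjusted p = 3.1e-07) and -9.60 ± 0.70 (adjusted p = 6.39e-08).

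Treh, on chromosome 9 (ENSMUSG00000032098, 44584530-44597602, plus strand), encodes trehalase, which splits the sugar of fungi and insects. It was at 168, 215 and 139 CPM in Halo-NLS, at 118, 86.1 and 30.3 CPM in SOX9-mEGFP_budding, at 83.3, 89.8 and 55.6 CPM in SOX9-Halo_budding, and at 7.19, 3.85 and 2.98 CPM in SOX9-mEGFP spheroids. SOX9-Halo spheroids held 2, 1 and 6 reads of it. Control libraries, budding organoids, SOX9-mEGFP spheroids and SOX9-Halo spheroids thus lay at 4 levels that did not overlap, and the differences of the spheroids from the others and from each other were called. The change from budding to spheroid was -4.06 ± 0.49 (adjusted p = 1.74e-05) in the SOX9-mEGFP line and -9.69 ± 0.69 (adjusted p = 5e-08) in the SOX9-Halo line. Against Halo-NLS the values were -5.22 ± 0.51 (adjusted p = 1.6e-06) and -10.88 ± 0.71 (adjusted p = 1.76e-08).

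Alpi encodes the intestinal alkaline phosphatase, which removes phosphate from bacterial lipopolysaccharide and nucleotides at the apical surface, and lies on chromosome 1 (ENSMUSG00000079440, 87025724-87029328, minus strand). It was at 750.4, 1024 and 532 CPM in Halo-NLS, at 266, 187 and 78.0 CPM in SOX9-mEGFP_budding and at 249, 258 and 359 CPM in SOX9-Halo_budding. The level was 27.7, 16.5 and 11.9 CPM in SOX9-mEGFP spheroids and 0.176, 0.169 and 0.670 CPM, or 5, 6 and 25 reads, in SOX9-Halo spheroids. As with Treh, no library of a later group reached the level of a Halo-NLS library. From budding to spheroid Alpi changed by -3.24 ± 0.49 (adjusted p = 0.00014) in the SOX9-mEGFP line and by -9.68 ± 0.68 (adjusted p = 4.43e-08) in the SOX9-Halo line. Against Halo-NLS it changed by -5.36 ± 0.54 (adjusted p = 2.09e-06) and -11.09 ± 0.71 (adjusted p = 1.56e-08). Alpi has a close relative, Akp3, and only uniquely aligned reads had been counted. Akp3 was at 170 ± 40.4 CPM in Halo-NLS, 2.46 ± 1.04 CPM in SOX9-mEGFP spheroids and 0.176 ± 0.196 CPM in SOX9-Halo spheroids (SD, n = 3).

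The aminopeptidase gene Anpep, on chromosome 7 (ENSMUSG00000039062, 79471551-79510807, minus strand), was the exception. Aminopeptidase N trims single residues from the amino end of peptides and is also made by many cells outside the gut. Anpep was at 354, 812 and 342 CPM in Halo-NLS, at 272, 232 and 192 CPM in SOX9-mEGFP_budding and at 266, 649 and 571 CPM in SOX9-Halo_budding. SOX9-mEGFP spheroids had 148, 171 and 299 CPM and SOX9-Halo spheroids 595, 602 and 704 CPM. The SOX9-Halo spheroids lay within the range of the control and budding libraries, and above every SOX9-mEGFP spheroid library. The change from budding to spheroid was -0.17 ± 0.37 (adjusted p = 0.796) in the SOX9-mEGFP line and 0.36 ± 0.37 (adjusted p = 0.489) in the SOX9-Halo line. Against Halo-NLS, SOX9-mEGFP spheroids were at -1.29 ± 0.38 (adjusted p = 0.0117, just outside the threshold, and called by DESeq2) and SOX9-Halo spheroids at 0.33 ± 0.37 (adjusted p = 0.484). Between the spheroids, Anpep was higher in the SOX9-Halo line by 1.62 ± 0.38 (3.08-fold, adjusted p = 0.00572), a call that was lost without SOX9-Halo spheroid replicate 1, 2 or 3 or SOX9-mEGFP spheroid replicate 1 or 2, each left out alone (log2 fold change 1.42 to 1.98 over all 15 such fits).

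The other exopeptidases behaved differently from Anpep and from each other. Dpp4, on chromosome 2 (ENSMUSG00000035000, 62159798-62242576, minus strand), encodes the protease that clips dipeptides behind proline and inactivates incretin hormones. It was at 144, 62.2 and 56.7 CPM in Halo-NLS, 245, 203 and 126 CPM in SOX9-mEGFP_budding and 194, 86.0 and 152 CPM in SOX9-Halo_budding. The level remained at 126, 136 and 95.9 CPM in SOX9-mEGFP spheroids and dropped to 5.47, 3.55 and 2.84 CPM in SOX9-Halo spheroids. SOX9-mEGFP spheroids overlapped both the control and the budding libraries of their line, and SOX9-Halo spheroids were below all others. From budding to spheroid the change was -0.68 ± 0.39 (adjusted p = 0.226) in the SOX9-mEGFP line and -5.19 ± 0.46 (adjusted p = 4.01e-07) in the SOX9-Halo line. Dpp4 shares 2.643% of its exon length with a long noncoding RNA gene on the other strand, and reads had been counted without strand.

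Enpep, on chromosome 3 (ENSMUSG00000028024, 129062824-129126369, minus strand), encodes the aminopeptidase that removes acidic residues and converts angiotensin. Its levels were 154, 90.9 and 29.5 CPM in Halo-NLS, 194, 143 and 46.0 CPM in SOX9-mEGFP_budding and 193, 151 and 164 CPM in SOX9-Halo_budding. Spheroids held 17, 13 and 18 reads in the SOX9-mEGFP line and 4, 2 and 17 reads in the SOX9-Halo line. As for Lct, both kinds of spheroid were far below the other 9 libraries and overlapped each other. Relative to budding organoids, pooled scaled reads were 258-fold lower in SOX9-mEGFP spheroids (95% exact interval 195 to 350.3) and 753-fold lower in SOX9-Halo spheroids (502 to 1188). Of the 23 reads in SOX9-Halo spheroids 17 came from replicate 3, and without it the ratio was 1822. The fitted changes were -8.14 ± 0.77 (adjusted p = 1.91e-06) and -9.54 ± 0.83 (adjusted p = 3.12e-07).

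The meprin subunits, which together form a secreted and membrane-bound endopeptidase that cuts larger peptides, followed Mgam and Dpp4. Mep1a, on chromosome 17 (ENSMUSG00000023914, 43785215-43813703, minus strand), was at 29.3, 36.7 and 31.2 CPM in Halo-NLS, 86.2, 77.5 and 41.1 CPM in SOX9-mEGFP_budding, 100.02, 93.8 and 81.0 CPM in SOX9-Halo_budding and 60.9, 32.2 and 19.96 CPM in SOX9-mEGFP spheroids. In SOX9-Halo spheroids only 1, 2 and 1 reads were counted. Mep1b (ENSMUSG00000024313) was at 45.8, 36.6 and 32.5 CPM in Halo-NLS, 50.9, 50.2 and 26.1 CPM in SOX9-mEGFP_budding, 96.2, 45.1 and 85.9 CPM in SOX9-Halo_budding and 36.7, 22.4 and 6.72 CPM in SOX9-mEGFP spheroids. It had 2, 0 and 4 reads in SOX9-Halo spheroids, where the 0 allows up to 3 reads, or 0.0845 CPM. For both subunits the SOX9-mEGFP spheroids overlapped the Halo-NLS libraries and the SOX9-Halo spheroids were lower by orders of magnitude. From budding to spheroid the SOX9-mEGFP line gave -0.86 ± 0.34 for Mep1a (adjusted p = 0.0761) and -0.95 ± 0.49 for Mep1b (adjusted p = 0.183), neither called. The SOX9-Halo line gave -11.05 ± 0.59 for Mep1a (adjusted p = 4.48e-09) and -10.23 ± 0.82 for Mep1b (adjusted p = 1.36e-07). Pooled scaled reads in the SOX9-Halo line were 2332-fold lower for Mep1a (95% exact interval 910.5 to 8560.1) and 1301-fold lower for Mep1b (597 to 3546), the latter 844 without SOX9-Halo spheroid replicate 2 and 2463 without replicate 3.

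**Figure D2:**
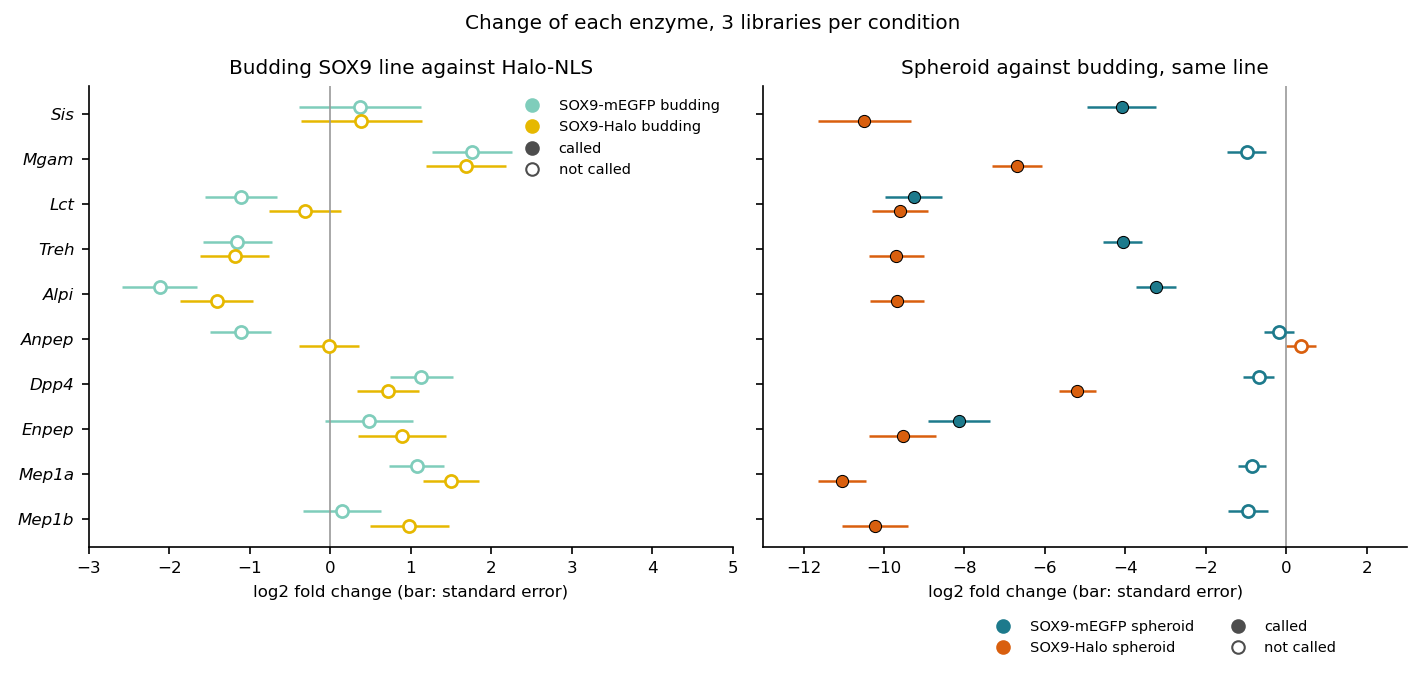
Log2 fold change of each enzyme with its standard error, for the budding organoids against Halo-NLS (left) and for spheroids against budding organoids of the same line (right, a different scale); filled points were called. On the right, 9 of the 10 points of the SOX9-Halo line lie at -5.19 or lower and Anpep at 0.36, and 5 points of the SOX9-mEGFP line lie between -0.98 and -0.17 without a call.

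Over the 17560 genes tested, the median log2 fold change from budding to spheroid was -2.11 for the 10 enzymes against -0.04 for all genes in the SOX9-mEGFP line, and -9.64 against -0.08 in the SOX9-Halo line. Against Halo-NLS the enzymes' median was -2.51 in SOX9-mEGFP spheroids and -9.40 in SOX9-Halo spheroids, with 0.03 and -0.01 over all genes. The comparisons against Halo-NLS share the 3 control libraries.

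The budding organoids and Halo-NLS show how the enzymes stood under SOX9 overexpression before the change of shape. Halo-NLS and the SOX9 lines were separate transductions with 1 line each, and not all were at the same passage, so SOX9 cannot be told apart from line and time in culture. With edgeR 0 of the 10 enzymes were called lower or higher in SOX9-mEGFP_budding, where 0.763% of all genes were lower and 1.99% higher, and 0 in SOX9-Halo_budding, where 1.26% were lower and 2.49% higher. The unadjusted p was under 0.05 for 7 enzymes in SOX9-mEGFP_budding (34.4% of all genes) and for 4 in SOX9-Halo_budding (37.5% of all genes). DESeq2, over 52932 genes, called Alpi lower and Mgam higher in SOX9-mEGFP_budding (0.512% of all genes lower and 1.75% higher) and Mgam and Mep1a higher in SOX9-Halo_budding (0.805% lower and 2.22% higher). Alpi had the largest difference downward, at -2.12 ± 0.47 (adjusted p = 0.0119) and -1.41 ± 0.46 (adjusted p = 0.0441), without overlap between the groups in either line. Treh was at -1.16 ± 0.43 (adjusted p = 0.0767) and -1.19 ± 0.43 (adjusted p = 0.0641), also without overlap. In the other direction, Mgam was at 1.76 ± 0.50 (adjusted p = 0.0327) and 1.68 ± 0.49 (adjusted p = 0.0309), and Mep1a at 1.07 ± 0.34 (adjusted p = 0.0479) and 1.499 ± 0.34 (adjusted p = 0.0125), again without overlap. None of these met the threshold of 0.01, and both comparisons share the Halo-NLS libraries. How many of all genes were without overlap was not counted. The median over the 10 enzymes was 0.26 in SOX9-mEGFP_budding and 0.55 in SOX9-Halo_budding, against 0.03 and 0.01 over all genes. Between the budding lines 0 enzymes were called with edgeR (0.165% of all genes were lower and 0.29% higher in the SOX9-Halo line) or with DESeq2 (0.196% and 0.174%). An unadjusted p under 0.05 was found for 1 enzyme, Anpep, at 1.09 ± 0.38 (adjusted p = 0.296), and for 8.37% of all genes.

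The spheroids of the lines were compared directly, although SOX9-Halo_spheroid had been longer in culture and was farther along in taking on the spheroid shape than SOX9-mEGFP_spheroid, which cannot be told apart from the line. In SOX9-Halo spheroids 7 enzymes were lower than in SOX9-mEGFP spheroids (9.58% of all genes were) and Anpep was higher (3.59% of all genes were). The differences were -6.37 ± 0.99 for Sis, -5.79 ± 0.60 for Mgam, -5.67 ± 0.65 for Treh, -5.73 ± 0.60 for Alpi, -4.92 ± 0.46 for Dpp4, -9.77 ± 0.58 for Mep1a and -8.44 ± 0.79 for Mep1b, with adjusted p between 2.56e-08 and 0.000202. For these 7 genes no library of one line reached the level of a library of the other. The share of all genes without overlap was not counted. Lct, at 0.46 ± 0.94 (adjusted p = 0.77), and Enpep, at -0.99 ± 0.81 (adjusted p = 0.423), were not called. At 9 to 48 pooled reads per condition, the pooled scaled reads of the SOX9-mEGFP line were set over those of the SOX9-Halo line. The 95% exact interval of this ratio was 0.265 to 1.84 for Lct and 1.18 to 3.41 for Enpep. It covers counting error only and not the spread between libraries, and Enpep had 4, 2 and 17 reads in the SOX9-Halo spheroids. A test of the interaction, the change from budding to spheroid in the SOX9-Halo line less that in the SOX9-mEGFP line, called the same 7 genes lower (5.58% of all genes were). Its values ran from -4.51 ± 0.57 for Dpp4 (adjusted p = 7.47e-05) to -10.19 ± 0.68 for Mep1a (adjusted p = 2.39e-07), and were 0.53 ± 0.53 for Anpep (adjusted p = 0.618), -0.33 ± 1.14 for Lct (adjusted p = 0.907) and -1.40 ± 0.98 for Enpep (adjusted p = 0.44).

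On a per-length scale, as TMM-scaled CPM per kilobase of exon (RPKM), the enzymes can be set against each other. The 10 together summed to 753 ± 246 RPKM in Halo-NLS, 493 ± 223 in SOX9-mEGFP_budding and 626 ± 61.9 in SOX9-Halo_budding (SD, n = 3), and to 136 ± 3.28 RPKM in SOX9-mEGFP spheroids and 154 ± 15.0 in SOX9-Halo spheroids. The spheroid sums ran from 132 to 139 RPKM and from 145 to 171 RPKM, and differed in make-up. In Halo-NLS, Alpi made up 44.6% ± 8.13 of the sum, Sis 16.5% ± 16.1, Anpep 16.4% ± 6.56 and Treh 11.8% ± 2.74, and the spread of Sis came from replicate 1, with 35.0% against 5.22% and 9.19% in the others. In budding organoids Sis had the highest mean share, with 33.7% ± 6.74 in SOX9-mEGFP_budding and 27.5% ± 14.8 in SOX9-Halo_budding, where replicate 1 had 43.3% and Anpep exceeded Sis in replicate 2, with 28.1% against 14.0%. SOX9-mEGFP spheroids had 36.5% ± 14.3 Anpep, 24.9% ± 3.74 Mgam and 10.0% ± 1.86 Dpp4. In SOX9-Halo spheroids Anpep made up 99.1% ± 0.153, and without it the other 9 enzymes summed to 1.45 ± 0.288 RPKM, compared with 86.2 ± 19.9 RPKM in SOX9-mEGFP spheroids. In Halo-NLS the order of mean RPKM was Alpi, Sis, Anpep, Treh, Mgam, Lct, Mep1b, Enpep, Dpp4 and Mep1a, and only Treh and Mgam were neighbours whose libraries did not overlap.

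**Figure D3:**
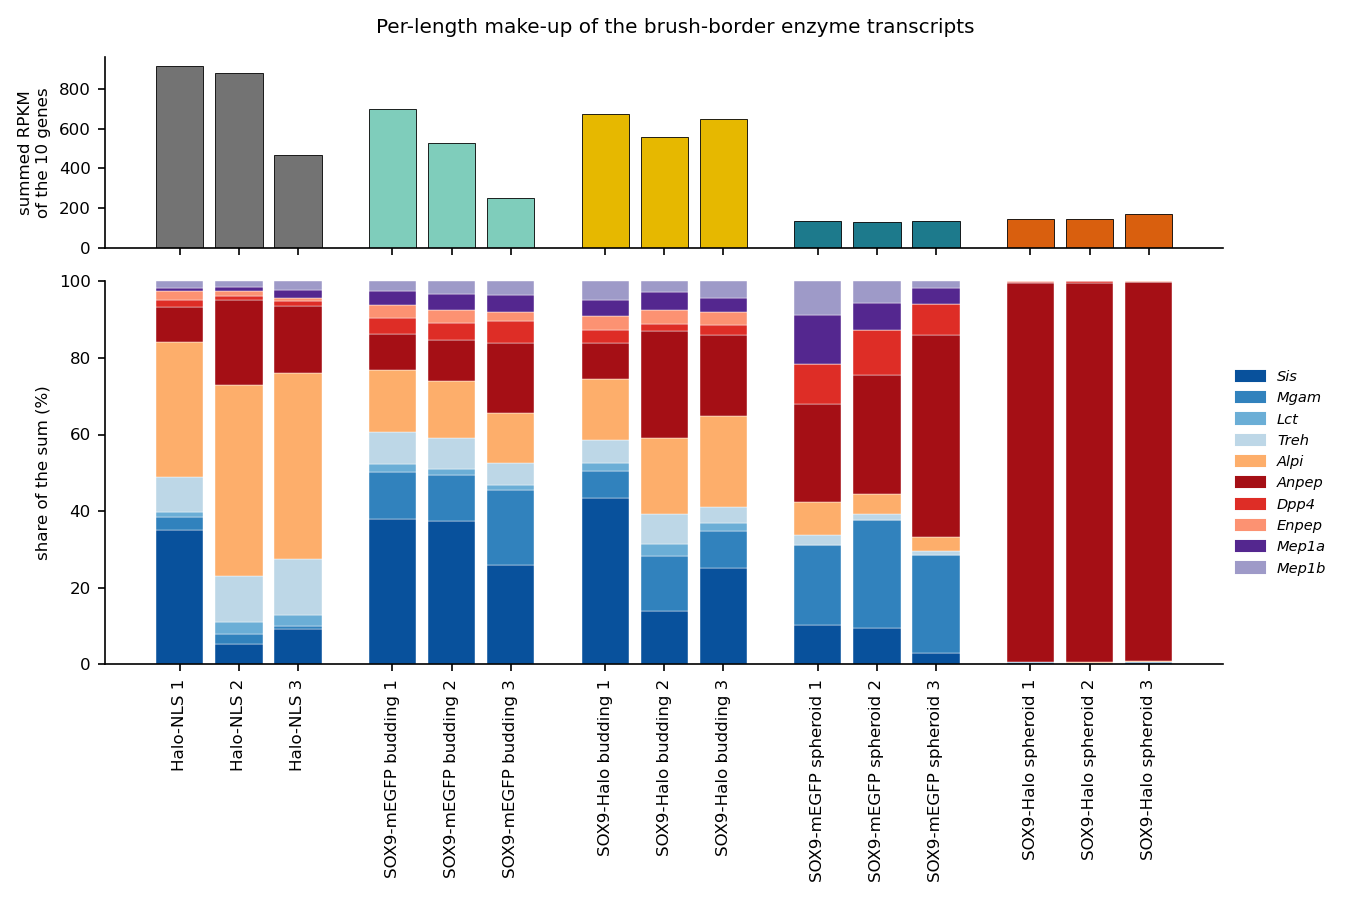
Summed RPKM of the 10 enzymes in each library (top) and the share of each enzyme in that sum in percent (bottom), for the 3 libraries of each condition. Anpep (dark red) fills 98.9% to 99.2% of the bars of the SOX9-Halo spheroids, and Alpi (orange) is the widest band in Halo-NLS.

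The other 12 enterocyte markers followed the enzymes. These genes of fat, sugar and peptide absorption, among them Fabp1, Slc5a1 and Apoa4, summed to 14759 to 24363 CPM in Halo-NLS, 4572 to 17645 CPM in SOX9-mEGFP_budding, 8568 to 19085 CPM in SOX9-Halo_budding, 594 to 1273 CPM in SOX9-mEGFP spheroids and 7.52 to 17.9 CPM in SOX9-Halo spheroids. Against the budding organoids of the line, 8 of 12 fell in SOX9-mEGFP spheroids and 12 of 12 in SOX9-Halo spheroids, with medians of -2.74 and -10.15. Of all genes tested, 7.88% and 14.7% fell, with medians of -0.04 and -0.08. In SOX9-Halo spheroids 0 of the 12 had no read at all, and Slc15a1, the peptide transporter, had 1 to 3 reads over the condition. The part of fewer enterocytes in the fall of the enzymes was not tested.

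Of 14 other hydrolases of the apical surface, 13 were in the count tables and 11 were tested, and 10 of the 11 fell from budding to spheroid in each line, with medians of -3.17 in the SOX9-mEGFP line and -5.15 in the SOX9-Halo line. Ace, angiotensin-converting enzyme, was at 0.58 in the SOX9-mEGFP line, where it was not called, and fell by 2.10 on the log2 scale in the SOX9-Halo line. Of 25 enzymes of the same families that work inside the cell or elsewhere, 14 were tested, of which 2 fell in the SOX9-mEGFP line and 3 in the SOX9-Halo line, where 7.88% and 14.7% of all genes did, with medians of -0.01 and 0.10. Ganab, the glucosidase of the endoplasmic reticulum and a relative of Sis and Mgam, was at 331 ± 30.0 CPM in SOX9-mEGFP spheroids and 446 ± 42.7 CPM in SOX9-Halo spheroids, against 392 ± 18.8 and 307 ± 55.9 CPM in the budding organoids. Npepps, a cytosolic aminopeptidase of the Anpep family, was at 311 ± 27.7 CPM and 260 ± 8.68 CPM in spheroids, and 264 ± 36.4 and 217 ± 40.8 CPM in budding organoids (SD, n = 3). Lta4h, another aminopeptidase of that family and a leukotriene hydrolase, changed by -0.86 ± 0.18 (adjusted p = 0.00243, under the fold threshold) in the SOX9-mEGFP line and fell in the SOX9-Halo line, by 1.58 ± 0.19 on the log2 scale (adjusted p = 6.99e-06). The aminopeptidase Rnpep was at -0.12 ± 0.24 (adjusted p = 0.785) and 0.65 ± 0.24 (adjusted p = 0.0463).

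The microvillus that carries the enzymes differed unevenly. Of 13 genes of its scaffold and tip adhesion complex, 3 fell and 1 rose from budding to spheroid in the SOX9-mEGFP line. In the SOX9-Halo line 10 fell and 1 rose, and the medians were -0.52 and -3.68. Over all 17560 genes tested, 1384 fell and 1501 rose in the SOX9-mEGFP line, and 2584 and 1851 in the SOX9-Halo line. Cdhr5, a protocadherin that links microvillus tips, was at 206 ± 15.6 CPM in SOX9-mEGFP spheroids and 0.298 ± 0.216 CPM in SOX9-Halo spheroids. Vil1, the actin bundler villin, changed by -0.32 ± 0.26 (adjusted p = 0.419) in the SOX9-mEGFP line and by -3.15 ± 0.28 (adjusted p = 3.71e-07) in the SOX9-Halo line. Ezr, the membrane linker ezrin, rose in both, by 1.03 ± 0.23 (adjusted p = 0.00295) and 1.17 ± 0.23 (adjusted p = 0.000673). Of 9 genes of apical delivery, 1 rose in the SOX9-mEGFP line, and 2 fell and 1 rose in the SOX9-Halo line. For so few genes these counts are close to the shares of all genes. The lectin Lgals4, which carries enzymes to the apical membrane, was at 2228 ± 559 CPM in SOX9-mEGFP spheroids and 54.7 ± 32.0 CPM in SOX9-Halo spheroids, and its relative Lgals3 was the gene that rose, to 453 ± 4.09 and 328 ± 84.8 CPM.

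Among 14 transcription factors with known roles at these promoters, 5 fell and 1 rose from budding to spheroid in the SOX9-mEGFP line, and 8 fell and 3 rose in the SOX9-Halo line. Of all 17560 genes tested, 1384 fell and 1501 rose in the SOX9-mEGFP line, and 2584 and 1851 in the SOX9-Halo line. The factors that rose are not among those named here. Cdx2, the master factor of intestinal identity, was at 438 ± 83.2 CPM in Halo-NLS, 294 ± 21.7 and 295 ± 69.0 CPM in budding SOX9-mEGFP and SOX9-Halo organoids, 76.7 ± 23.1 CPM in SOX9-mEGFP spheroids and 2.69 ± 0.405 CPM in SOX9-Halo spheroids (SD, n = 3). Its change from budding to spheroid was -1.94 ± 0.24 (adjusted p = 2.66e-05) and -6.78 ± 0.31 (adjusted p = 1.28e-09). Hnf4a went from 886 ± 130.3 to 457 ± 82.7 CPM in the SOX9-mEGFP line, a change of -0.96 ± 0.24 that fell short of the fold threshold, and from 985 ± 149.9 to 48.0 ± 10.5 CPM in the SOX9-Halo line, a change of -4.36 ± 0.27 (adjusted p = 1.57e-08). Gata4 was at -0.97 ± 0.25 (adjusted p = 0.00905, under the fold threshold) and -0.12 ± 0.25 (adjusted p = 0.73), and Klf5 at -0.63 ± 0.35 (adjusted p = 0.225) and -0.96 ± 0.36 (adjusted p = 0.0422). Hnf4g, a paralog of Hnf4a named here after its values were seen, had 1 to 3 reads over the 3 SOX9-Halo spheroid libraries, a change of -12.08 ± 1.09 (adjusted p = 4.48e-07), and was at -3.31 ± 0.65 (adjusted p = 0.00123) in the SOX9-mEGFP line. Whether the factors act on the sites in the sequences above was not tested.

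**Figure D4:**
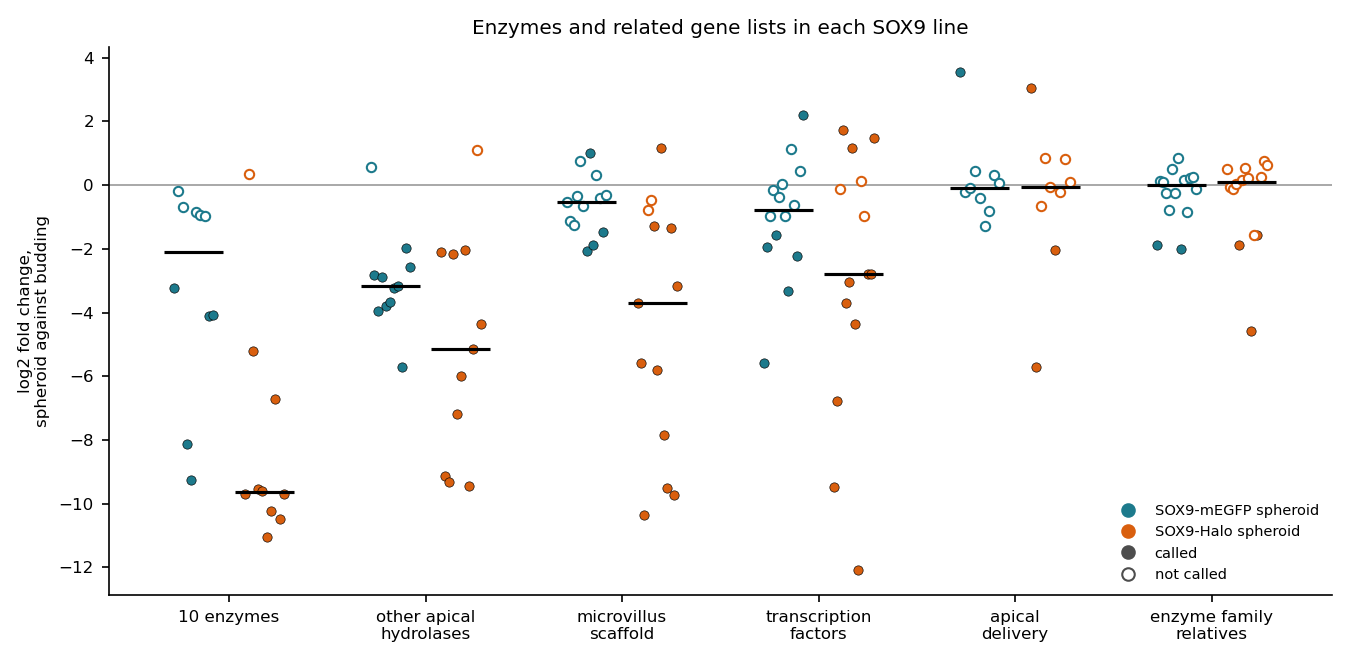
Log2 fold change from budding to spheroid of every tested gene of 6 lists, in the SOX9-mEGFP line (teal) and the SOX9-Halo line (orange), with a black bar at the median and filled points for called genes. The 10 enzymes have medians of -2.11 and -9.64, and the relatives from the same enzyme families have medians of -0.01 and 0.10.

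Enzymes of solid food and of milk were both among the genes that fell. Of 9 genes that mark the suckling or the adult enterocyte, 8 were tested, of which Lct, Sis and Treh are described above. From budding to spheroid 5 of the 8 fell and 1 rose in the SOX9-mEGFP line, and 6 fell and 1 rose in the SOX9-Halo line. Among all 17560 genes tested, 1384 fell and 1501 rose in the SOX9-mEGFP line, and 2584 and 1851 in the SOX9-Halo line. The gene of the list that rose was Ass1, the argininosuccinate synthase of the suckling enterocyte. It was at 11.9 ± 4.5 CPM in SOX9-mEGFP_budding and 292 ± 82 CPM in SOX9-mEGFP spheroids. In the SOX9-Halo line it was at 5.04 ± 0.65 CPM in SOX9-Halo_budding and 107 ± 37 CPM in SOX9-Halo spheroids. Lct, the other suckling enzyme of the list, went the opposite way in both lines.

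Across the 15 libraries the levels of the enzymes other than Anpep varied together, a description of libraries that share conditions. Pearson's r of log2 CPM with Sis was 0.963 for Mep1b, 0.958 for Treh, 0.951 for Alpi, 0.920 for Dpp4, 0.884 for Mgam and 0.821 for Lct, and -0.378 for Anpep. The pairs with the highest r were Treh and Alpi (0.994), Mep1a and Mep1b (0.984), Lct and Enpep (0.973) and Dpp4 and Mep1a (0.970), whereas Lct and Mgam gave 0.553. Among 11003 genes whose normalized count averaged 100 or more, those most like Sis were Abcg2 (0.992), A1cf (0.992) and Clca4b (0.992), and those most like Anpep were Cnnm2 (0.871), Prdm16 (0.867) and Dennd4b (0.864).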

How the data were processed

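Poly-A RNA of 15 organoid libraries was sequenced, 3 for each of 5 conditions named in the labels. The authors trimmed reads with cutadapt 4.5, aligned them to GRCm39 with STAR, keeping unique alignments, and counted them per Ensembl gene with HTSeq 2.0.2 without strand; they deposited these raw read counts per library. Reads with no gene (1.83% to 6.09%) or an ambiguous one (9.65% to 13.6%) were left out. Because HTSeq counts per gene, reads of the Sox9 transgene and of endogenous Sox9 cannot be separated.

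Counts were normalized with TMM and tested with edgeR 4.0.16 (quasi-likelihood, R 4.3.3) in 1 fit of all 15 libraries over 17560 genes, with Benjamini-Hochberg adjustment over all of them; the common biological coefficient of variation was 0.302. The thresholds, an adjusted p of 0.01, a 2-fold change and a mean normalized count of 10, follow the study's methods. The step was tested on simulated counts for 1 comparison, SOX9-Halo spheroids against Halo-NLS, with less spread than these data. Folds of genes with few reads are ratios of pooled, scaled counts with exact 95% intervals for counting error only. Exon lengths, positions and upstream sequence came from GENCODE M39 and GRCm39, which held 78168 of the 78298 gene identifiers. Correlations used log2 CPM with a prior count of 2.

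The enzymes and gene lists were chosen with earlier results of these data known. All 10 enzymes are described. From every other list at most 4 genes with the highest mean normalized count were named with values, then the 3 genes most correlated with Sis and with Anpep; other genes are said to have been chosen after their values were seen. Of the genes this rule names, 2 are not reported here. Alternatives were DESeq2 1.42.0, RLE scaling, library sizes alone, no filter on low counts, the compared libraries alone, a 4-fold threshold, a replicate block and leaving out each library.

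Same-numbered replicates were checked for pairing by correlating deviations from the condition means. Only SOX9-Halo_budding and SOX9-Halo_spheroid passed, of 10 pairs of conditions (r = 0.403, 0.234 and 0.344), and there the replicate block changed no call of an enzyme.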

Additional observations from a re-analysis of the deposited data

Results flagged for a closer look

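In 7 enzymes the change from budding organoid to spheroid differed between the SOX9-Halo and SOX9-mEGFP lines by a test of the difference itself (edgeR interaction term, adjusted over 17560 genes). Of all genes, the same test called 979 lower (5.58%) and 318 higher. On the log2 scale the change in the SOX9-Halo line less that in the SOX9-mEGFP line was -6.39 for Sis, -5.72 for Mgam, -5.63 for Treh, -6.44 for Alpi, -4.51 for Dpp4, -10.19 for Mep1a and -9.28 for Mep1b, with adjusted p between 2.39e-07 and 0.00201. The lines differed in tag, in the second transgene, in being separate transductions, and in time in culture and progress of the spheroid shape, and these cannot be told apart with 1 line per tag. Sox9 reads, at 489 ± 223 CPM in SOX9-mEGFP spheroids and 399 ± 73.9 CPM in SOX9-Halo spheroids (SD, n = 3), overlapped between the lines.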

How the results depend on the processing

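Of 43 calls of an enzyme in the comparisons and the interaction, 40 were kept in every alternative tried. The exceptions were Sis in SOX9-mEGFP spheroids against Halo-NLS (-3.81, adjusted p = 0.0103, with the compared libraries alone; -2.11 without Halo-NLS replicate 1; -3.36 without SOX9-mEGFP spheroid replicate 3), Sis against the budding organoids of that line, and Anpep between the spheroid lines. With a 4-fold threshold 0 rather than 1 enzyme was higher in SOX9-Halo than in SOX9-mEGFP spheroids, and 0 to 1 when single libraries were left out.

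The budding organoids were where calls depended on the setting. Without the filter on low counts, 4 enzymes were lower and 3 higher in SOX9-mEGFP_budding than in Halo-NLS. Of 52932 genes, 261 were then lower and 1730 higher. In SOX9-Halo_budding 2 enzymes were lower and 3 higher, with 424 and 1933 of all genes. Between the budding lines 1 enzyme was higher in SOX9-Halo_budding than in SOX9-mEGFP_budding, with 164 genes lower and 116 higher. The cause of these changes in calls was not tested. DESeq2 gave 1 lower and 1 higher in SOX9-mEGFP_budding and 2 higher in SOX9-Halo_budding, and library sizes alone gave 1 higher there. With the replicate block over all libraries 1 enzyme, Mep1a, was higher in SOX9-Halo_budding, where 570 of 17560 genes were. The replicate block on the compared libraries alone was chosen after seeing the data. With it 1 enzyme, Alpi, was lower in SOX9-mEGFP_budding, where 66 of 15026 genes were. In neither do the numbers pair the samples, and the block changed no other count of calls. Leaving out single libraries gave 0 to 1 lower (Alpi, without Halo-NLS replicate 1 or SOX9-Halo spheroid replicate 3) and 0 to 2 higher (Mgam and Dpp4, without Halo-NLS replicate 1) in SOX9-mEGFP_budding, and 0 to 1 higher in SOX9-Halo_budding (Mgam without Halo-NLS replicate 1, Mep1a without SOX9-mEGFP_budding replicate 3 or SOX9-mEGFP spheroid replicate 1 or 3). Anpep in SOX9-mEGFP spheroids against Halo-NLS (-1.29, not called) was called in 6 alternatives: DESeq2 (adjusted p = 0.00456), no filter (adjusted p = 1.83e-05), and without Halo-NLS replicate 1 or 3, SOX9-Halo_budding replicate 1 or SOX9-mEGFP spheroid replicate 3 (-1.67 to -1.29), and Mep1a against budding organoids without SOX9-mEGFP spheroid replicate 1 (-1.41, adjusted p = 0.00445).

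Uncalled values near 0 changed sign. When single libraries were left out, the log2 fold change against Halo-NLS ran in SOX9-mEGFP_budding from -0.055 to 1.99 for Sis and -0.0022 to 0.40 for Mep1b, in SOX9-Halo_budding from -0.17 to 2.00 for Sis, -0.51 to 0.14 for Lct and -0.26 to 0.52 for Anpep, and in SOX9-mEGFP spheroids from -0.32 to 0.50 for Mep1a. Between the budding lines it ran from -0.54 to 0.43 for Sis, -0.27 to 0.16 for Mgam, -0.44 to 0.39 for Treh and -0.022 to 0.84 for Enpep, between the spheroid lines from -0.12 to 1.34 for Lct, and in the interaction from -0.93 to 0.52 for Lct. Anpep in SOX9-Halo_budding was at 0.29 with library sizes alone, 0.0093 without the filter and 0.0091 with the replicate block on the compared libraries. Between the budding lines Sis was at -0.0051 with RLE scaling and -0.0096 with DESeq2, Mgam at 0.0089 with library sizes alone, and Treh at 0.065 with library sizes alone, 0.089 with the replicate block and 0.17 with the block on the compared libraries.

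Library sizes alone moved the median log2 fold change of all genes against Halo-NLS to 0.27 in SOX9-mEGFP_budding, 0.31 in SOX9-Halo_budding, 0.29 in SOX9-mEGFP spheroids and 0.28 in SOX9-Halo spheroids. The genes called lower and higher, in that order of conditions, then went from 134 and 350 to 108 and 620, from 221 and 438 to 109 and 1069, from 2133 and 2690 to 1499 and 3334, and from 2682 and 2392 to 2227 and 3103. The totals of the budding comparisons also depended on the libraries: without Halo-NLS replicate 1 they were 345 and 1839 in SOX9-mEGFP_budding and 384 and 1986 in SOX9-Halo_budding, without replicate 2 they were 73 and 143, and 76 and 125, without replicate 3 they were 83 and 191, and 101 and 187, and with the compared libraries alone 38 and 65, and 0 and 5. The ratios of pooled reads without single libraries were added after seeing the data. At 1 to 25 reads per library the size of the largest falls is limited by counting error, and Lct did not differ between the spheroid lines beyond it.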

Other observations

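The other secretory and crypt cell types of the epithelium were followed by their own markers. From budding to spheroid, 7.88% of all genes tested were called lower in the SOX9-mEGFP line and 14.7% in the SOX9-Halo line. Of 6 goblet cell genes, 0 were called from budding to spheroid with edgeR in the SOX9-mEGFP line and 6 fell in the SOX9-Halo line. Their summed level was 2571 to 3733 CPM in SOX9-mEGFP spheroids and 17.1 to 22.9 CPM in SOX9-Halo spheroids, compared with 1729.5 to 9810.0 CPM in budding organoids of either line. Tff3, a secreted trefoil peptide, was at 643 ± 45.5 CPM in SOX9-mEGFP spheroids and 0.787 ± 0.3003 CPM in SOX9-Halo spheroids (SD, n = 3). Muc2, the gel-forming mucin, was at 425 ± 342 CPM in SOX9-mEGFP_budding (150.02 to 809) and 29.7 ± 27.9 CPM in SOX9-mEGFP spheroids (3.41 to 59.0), without overlap, at a log2 fold change of -3.84 ± 1.25 (adjusted p = 0.031, not called). All 7 enteroendocrine genes fell in both lines, with medians of -7.81 and -10.22.

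Paneth cell genes were split. Of 6, 5 fell in the SOX9-mEGFP line and 6 in the SOX9-Halo line, where 7.88% and 14.7% of all genes did. Lyz1, lysozyme, changed by -5.34 ± 0.42 (edgeR, adjusted p = 4e-07) and -9.52 ± 0.52 (adjusted p = 5.12e-09). Mmp7, the protease that activates defensins, was the exception, at 32.5 ± 7.00 CPM in SOX9-mEGFP_budding and 1245 ± 122 CPM in SOX9-mEGFP spheroids, against 5.47 ± 1.59 CPM and 0.430 ± 0.0596 CPM in the SOX9-Halo line. Of 5 stem cell genes, 2 fell in the SOX9-mEGFP line and 3 in the SOX9-Halo line, and 0 were called higher in either. Olfm4 and Smoc2 fell in both, and Lgr5 was at 0.46 ± 0.52 (edgeR, adjusted p = 0.595) and -2.04 ± 0.54 (adjusted p = 0.00677). Not every gene of this list had a lower mean level in SOX9-Halo spheroids than in the budding organoids of that line. Of 4 tuft cell genes tested, 2 fell in each line.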
